A study of Mus musculus with 6 samples.

Results

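The genes described here are 10 inflammatory targets of the transcription factor NF-κB, taken by symbol from the deposited table: the chemokine genes Cxcl1, Cxcl2, Ccl2 and Ccl7, the cytokine genes Il6 and Lif, the prostaglandin synthase gene Ptgs2, the adhesion gene Icam1, and the feedback genes Tnfaip3 and Nfkbia. All 10 were found among the 27098 genes of the table, and all 10 passed the filter on low counts, as did 17475 genes in all. Messenger RNA was sequenced from cultured ovaries of 3-day-old mice after 2 h in DMEM/F12 medium with antibiotics, without further addition in 3 control libraries and with 2% platelet-rich plasma (PRP), a plasma fraction concentrated in platelets and their growth factors, in 3 PRP libraries. The series text gives the plasma as human and thrombin-activated, and the labels name no control that received thrombin or another plasma. The labels give neither the strain, nor the number of ovaries behind a library, nor whether replicates were pooled or separate cultures, so p-values measure only the spread between these libraries, which may be technical.

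NF-κB is a family of paired DNA-binding subunits held inactive in the cytoplasm by IκB proteins. Receptors for TNF, interleukin 1 and microbial products activate the IκB kinase complex, IκB is degraded, and the subunits enter the nucleus and switch on chemokines, cytokines and adhesion molecules. Among the first transcripts made are those of Nfkbia, which encodes the inhibitor IκBα, and of Tnfaip3, which encodes the ubiquitin-editing enzyme A20, and both shut the pathway down again. In the adult ovary Ptgs2 is best known for its induction before ovulation, and in damaged tissue the chemokines of this set recruit neutrophils and monocytes.

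NF-κB subunits recognise a short element, the κB site, and the promoter sequences are shown for this reason. The genes were listed as NF-κB targets, so matches among them are no independent evidence of a tie to the pathway. RefSeq windows of GRCm38.p6 were matched for 8 of the 10 genes, all but Ccl2 and Ccl7. In the 250 bases before the gene start, a match to the κB consensus on either strand was present for 6 of these 8 genes, namely Cxcl1, Cxcl2, Il6, Lif, Tnfaip3 and Nfkbia, against 7.25% of all 32851 such windows. The count is per gene and the share per window. The 8 genes had 9 windows, and a further window of Tnfaip3 held no match. Because the consensus is nearly symmetric, a site can match on both strands in overlapping frames, as in Cxcl1, Cxcl2, Lif and Tnfaip3. The stricter form (GGGA, any base, TTTCC, on either strand) was present for Cxcl1, Cxcl2, Il6 and Nfkbia, against 0.356% of all windows. These 4 are printed for the 100 bases before the gene start on the gene's own strand, with the κB match in capitals, followed by Icam1, the gene with the highest level per length, whose window held no match. The windows are chr5:90891145-90891244 on the plus strand, chr5:90903799-90903898 on the plus strand, chr5:30013014-30013113 on the plus strand, chr12:55492648-55492747 on the minus strand and chr9:21015840-21015939 on the plus strand.
Cxcl1: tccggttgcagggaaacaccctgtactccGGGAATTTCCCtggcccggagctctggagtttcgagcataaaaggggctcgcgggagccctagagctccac
Cxcl2: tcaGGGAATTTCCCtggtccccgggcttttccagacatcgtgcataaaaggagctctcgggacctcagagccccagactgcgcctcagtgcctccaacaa
Il6: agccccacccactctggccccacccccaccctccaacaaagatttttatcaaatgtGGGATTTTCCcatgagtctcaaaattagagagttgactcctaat
Nfkbia: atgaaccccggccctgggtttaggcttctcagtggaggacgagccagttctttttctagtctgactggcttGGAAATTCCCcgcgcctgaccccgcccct
Icam1: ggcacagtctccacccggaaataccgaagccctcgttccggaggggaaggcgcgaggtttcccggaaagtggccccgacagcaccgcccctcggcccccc
The match began 71 bases before the start in Cxcl1, 97 bases before it in Cxcl2, 44 bases before it in Il6 and 29 bases before it in Nfkbia. The neighbouring chemokine genes Cxcl1 and Cxcl2 carried the same run of letters, GGGAATTTCCC. A match is a description of the letters and not evidence of binding, and a window without one says nothing about the factor.

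**Figure D1:**
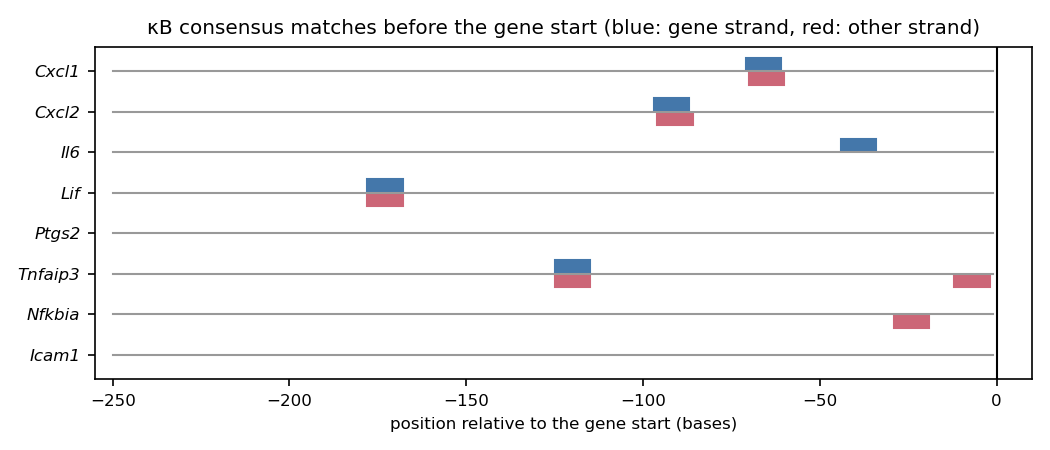
Position of κB consensus matches in the 250 bases before the gene start of 8 NF-κB target genes, in bases from the start, with matches on the gene's strand above the line and matches on the other strand below it. Matches lie within 130 bases of the start in Cxcl1, Cxcl2, Il6, Tnfaip3 and Nfkbia and at 178 bases in Lif, and Ptgs2 and Icam1 have none. A further window of Tnfaip3, without a match, is not drawn.

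The 6 libraries had similar depth, from 35568000 to 36568367 counts, and the ovarian markers Ddx4 (oocyte), Foxl2 (granulosa) and Col1a1 (fibroblast) were present in each at no less than 80.8, 162 and 1671 CPM (counts scaled to library size). Zp3 (oocyte) and Amh (granulosa) were less even, at 214 to 521 and 32.5 to 63.1 CPM. Replicate 2 was the lowest of each group for both, as it was for 3 of 8 oocyte and 2 of 6 granulosa markers. Control 3 stood apart. The summed level of 7 neutrophil markers was 39.3 CPM in it and 1.66 to 2.54 CPM in the other 5 libraries, and that of 7 erythroid markers was 1532 CPM against 108 to 225 CPM. The summed level of 11 interferon-stimulated genes was 421 CPM in control 3 and 212 to 280 CPM elsewhere. Not every neutrophil marker separated control 3: Elane, named after its values were seen, had 5 counts in control 3, 5 in PRP 1 and 0 in the other 4 libraries. The summed level of 10 macrophage markers was more even, at 96.1 CPM in control 3 and 73.2 to 92.5 CPM in the others. The part of these cell types in the levels of the NF-κB targets was not tested, and in whole ovary fewer cells of a type and less RNA per cell cannot be told apart.

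Over the 6 libraries no NF-κB target differed between PRP and control beyond the spread between replicates. In edgeR's quasi-likelihood test, with Benjamini-Hochberg adjustment over all 17475 genes, 0 of the 10 genes were called higher or lower (adjusted p = 0.9998 for each), where 0.0% of all genes were called. None of the 10 had an unadjusted p under 0.05, a level reached by 3.19% of all genes. DESeq2 and limma-voom also called 0 of 10, with 0 at that unadjusted level, which 2.18% and 3.23% of all genes reached. The groups overlapped for every one of the 10, whereas for 9.21% of all genes they did not. The log2 fold changes, PRP minus control, ran from -0.75 for Cxcl2 to 0.17 for Ccl7, 4 above 0 and 6 below where 50.4% of all genes lay above 0, with a median of -0.19 against 0.00 over all genes tested. That median took its sign from single libraries: it was 0.16 without control 3, 0.02 without PRP 2, -0.40 without control 2 and -0.39 without PRP 1. Without control 3, 8 of the 10 genes lay above 0, and without control 2, 0 did. In the edgeR fit without control 2, Cxcl1 (-0.68), Cxcl2 (-1.05) and Ccl2 (-0.71) had unadjusted p of 0.0368, 0.0103 and 0.0373. None of these passed over all genes (edgeR adjusted p = 0.9988 for each). That fit kept the outlying control 3 beside control 1 only. The share of all genes at that unadjusted level in it is not given here, so these p-values stand without a background.

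**Figure D2:**
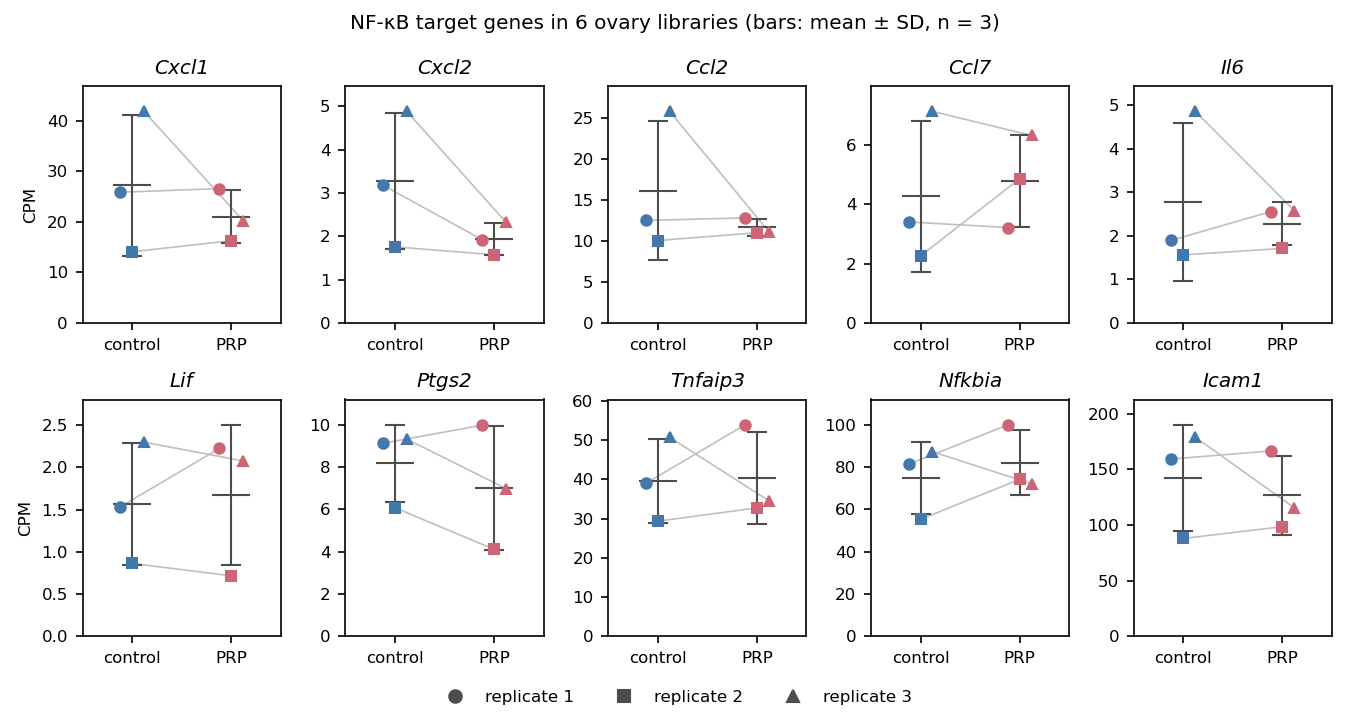
CPM of the 10 NF-κB target genes in each of 6 libraries, with control in blue, PRP in red, 1 marker shape per replicate number, grey lines joining libraries of the same number, and bars for mean ± SD (n = 3). Control 3 is the highest library for 7 of the 10 genes, and replicate 2 is the lowest of its group in both groups for 8 of the 10.

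What did differ was the level from library to library. Control 3 was the highest of the 6 libraries for 7 of the 10 genes (Cxcl1, Cxcl2, Ccl2, Ccl7, Il6, Lif and Icam1), as it was for 20.6% of all genes tested. PRP 1 was the highest for the other 3 (Ptgs2, Tnfaip3 and Nfkbia). Replicate 2 was the lowest library within control and also within PRP for 8 of the 10 genes, as it was for 20.1% of all genes tested. This low replicate 2 was not particular to NF-κB targets, since it was also seen for 12 of 14 immediate early genes and for 6 of 6 fibroblast markers. The median SD of log2 CPM among the controls was 0.70 for the 10 genes and 0.16 for all genes tested, and among the PRP libraries 0.37 and 0.15.

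Levels of different genes can be compared only per length, here as CPM per kilobase of merged exons. Icam1 and Nfkbia were the most abundant, at 53.1 ± 15.2 and 49.6 ± 9.57 CPM per kb (SD over the 6 libraries), followed by Cxcl1 at 25.4 ± 10.5 and Ccl2 at 17.1 ± 7.30. Tnfaip3 and Ccl7 lay at 8.71 ± 2.18 and 5.65 ± 2.38 CPM per kb. Ptgs2, Cxcl2 and Il6 lay between 1.71 and 1.04 CPM per kb, and Lif was the lowest at 0.400 ± 0.172. The library ranges of neighbours in this order overlapped except at 3 steps, between Ccl2 and Tnfaip3, between Ccl7 and Ptgs2 and between Il6 and Lif. In raw counts per library the genes ran from 26 for Lif in PRP 2 to 6306 for Icam1 in control 3, so that counting error weighs most on Lif, Il6 and Cxcl2.

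The chemokines Cxcl1 and Cxcl2 attract neutrophils through the receptor CXCR2 and lie side by side on chromosome 5 (Cxcl1, Entrez 14825, 90891245 to 90893121; Cxcl2, Entrez 20310, 90903899 to 90905938; GRCm38). Cxcl1 was at 25.9, 14.1 and 41.9 CPM in controls 1 to 3 and at 26.6, 16.3 and 20.3 CPM in PRP 1 to 3. Control 3 was the only library above the range of the PRP group, and replicate 2 was the lowest in both groups. Cxcl1 had a log2 fold change of -0.37 ± 0.40 (SE, n = 3 per group; 95% interval -1.36 to 0.62), and without control 3 it was 0.08 (-0.67 to 0.82).

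Cxcl2 was at 3.18, 1.76 and 4.88 CPM in the controls and at 1.92, 1.57 and 2.33 CPM in PRP. It was the only gene of the 10 that was lower in PRP in each of the 3 pairs of libraries with the same number (-0.71, -0.15 and -1.05 on the log2 scale), a pattern shared by 16.3% of all genes tested. Its log2 fold change of -0.75 ± 0.38 was the largest in size among the 10, and the 95% interval ran from -1.61 to 0.10. With the replicate number as a block the interval lay below 0 (-1.24 to -0.10, unadjusted p = 0.0248), but Cxcl2 did not pass over all genes (edgeR adjusted p = 0.357). Without control 3 the log2 fold change was -0.35 (-1.17 to 0.48).

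Ccl2 and Ccl7 attract monocytes through the receptor CCR2 and are neighbours on chromosome 11 (Ccl2, Entrez 20296, 82035577 to 82037452; Ccl7, Entrez 20306, 82045712 to 82047525). Ccl2 was at 12.5, 10.1 and 25.8 CPM in the controls and at 12.8, 11.0 and 11.2 CPM in PRP. All libraries but control 3 thus lay between 10.1 and 12.8 CPM, and control 3 was 2.24 times the mean of the other 5. For Ccl2 the fitted log2 fold change was -0.47 ± 0.34 (SE) with control 3 and 0.05 ± 0.16 without it, the latter with a 95% interval of -0.32 to 0.42.

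Ccl7 differed from its neighbour in the PRP libraries. It was at 3.40, 2.26 and 7.13 CPM in the controls and at 3.21, 4.86 and 6.31 CPM in PRP, so that control 3 and PRP 3 were the highest libraries of their groups. In pair 2 it was higher in PRP by 1.09 on the log2 scale, while pairs 1 and 3 differed by -0.08 and -0.17. Over all libraries the fitted log2 fold change was 0.17 (-0.82 to 1.16) and 0.76 (-0.01 to 1.53) without control 3, where it was the largest of the 10, and neither passed (edgeR adjusted p = 0.9998 and 0.989).

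Il6 encodes interleukin 6, and Lif the leukemia inhibitory factor, a cytokine of the same family that signals through the shared receptor subunit gp130. Il6 (Entrez 16193, chromosome 5, 30013114 to 30019975) was at 1.90, 1.56 and 4.85 CPM in the controls and at 2.55, 1.71 and 2.58 CPM in PRP. Control 3 was 2.36 times the mean of the other 5 libraries, the largest such ratio of the 10 genes. Il6 had a log2 fold change of -0.28 (-1.27 to 0.71), and 0.40 (-0.37 to 1.17) without control 3. Il6 overlaps the non-coding gene A230098N10Rik, a gene with 0 or 1 count per library.

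Lif (Entrez 16878, chromosome 11, 4257568 to 4272514) followed the replicate number more than the treatment. It was at 1.53, 0.864 and 2.30 CPM in the controls and at 2.22, 0.718 and 2.08 CPM in PRP. Both libraries of replicate 2 were below 1 CPM and every other library was above 1.5 CPM. The log2 fold change was 0.10, with a wide 95% interval of -1.03 to 1.23, and 0.48 (-0.73 to 1.69) without control 3.

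Ptgs2 (Entrez 19225, chromosome 1, 150100031 to 150108234) encodes cyclooxygenase 2, which makes the prostaglandin precursor PGH2. It was at 9.12, 6.07 and 9.31 CPM in the controls and at 9.97, 4.11 and 6.98 CPM in PRP. Here control 3 did not stand out from control 1, and PRP 2 was the lowest library. The log2 fold change was -0.22 (-0.93 to 0.50), and -0.11 (-0.95 to 0.73) without control 3.

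Icam1 (Entrez 15894, chromosome 9, 21015940 to 21028814) encodes an adhesion molecule to which leukocyte integrins bind. It was at 159, 88.0 and 179 CPM in the controls and at 167, 98.6 and 116 CPM in PRP. The high libraries were control 1, control 3 and PRP 1, and the low ones again the 2 libraries of replicate 2. Its fitted log2 fold change was -0.16 (-0.99 to 0.66), and 0.04 (-1.02 to 1.09) without control 3.

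The feedback genes Tnfaip3 and Nfkbia had the narrowest 95% intervals of the 10. Tnfaip3 (Entrez 21929, chromosome 10, 19000910 to 19015410) was at 38.9, 29.3 and 50.7 CPM in the controls and at 53.8, 32.7 and 34.5 CPM in PRP, with a log2 fold change of 0.03 (-0.59 to 0.64). Nfkbia (Entrez 18035, chromosome 12, 55489409 to 55492647) was at 81.3, 55.3 and 87.2 CPM in the controls and at 99.9, 74.2 and 72.1 CPM in PRP, with a log2 fold change of 0.14 (-0.34 to 0.61). PRP 1 was the highest library for both genes, and control 2 the lowest. Without control 3 the values were 0.24 (-0.36 to 0.85) for Tnfaip3 and 0.26 (-0.27 to 0.80) for Nfkbia.

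**Figure D3:**
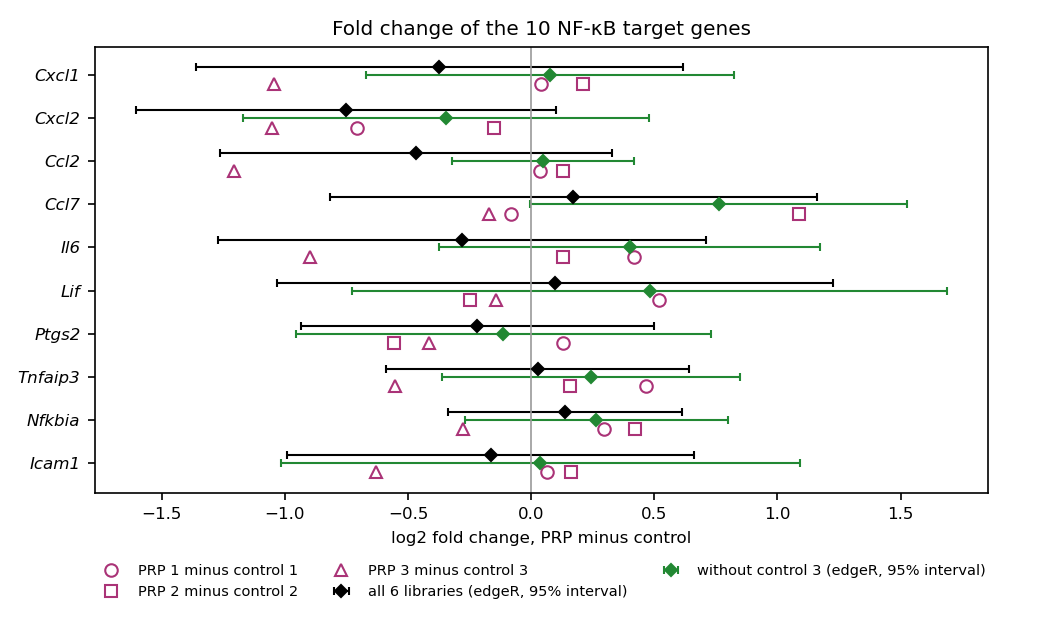
Log2 fold change, PRP minus control, of the 10 NF-κB target genes from edgeR with all 6 libraries (black) and without control 3 (green), with 95% intervals, and the difference of log2 CPM in each pair of libraries of the same number (open symbols). Every interval spans 0, and all 10 genes lie below 0 in pair 3.

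Comparing libraries of the same replicate number, PRP minus control, split the genes by pair rather than by role. In pair 1, 8 of the 10 genes lay above 0, with a median difference of 0.10 on the log2 scale. In pair 2, 7 of the 10 lay above 0, with a median of 0.14. In pair 3, 0 of the 10 lay above 0, with a median of -0.59, from -1.21 for Ccl2 to -0.14 for Lif. Over all genes tested the shares above 0 were 50.3%, 50.2% and 50.9% in pairs 1 to 3. Control 3 was the highest of the 6 libraries for 7 of the 10 genes. For Ptgs2, Tnfaip3 and Nfkbia the highest library was PRP 1, and their pair 3 differences were -0.41, -0.55 and -0.28. The part of the raised neutrophil, erythroid and interferon-stimulated transcripts of control 3 in the pair 3 values was not tested. No gene of the 10 was higher in PRP in all 3 pairs, which held for 16.8% of all genes.

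With the replicate number as a block, 0 of the 10 genes were called in either direction, where 0.12% of all genes were called (21 of 17475). Cxcl2 was the only gene of the 10 with an unadjusted p under 0.05, a level that 11.2% of all genes reached in that fit. Without replicate 3 in both groups the blocked median of the 10 was 0.15 on the log2 scale. The feedback genes then had the smallest p-values, Nfkbia with a log2 fold change of 0.36 (edgeR adjusted p = 0.0726) and Tnfaip3 with 0.32 (adjusted p = 0.295), and neither passed. That fit rests on 2 pairs of libraries, and these genes were singled out after their values were seen.

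The other genes of the pathway were described from 5 lists. All 10 NF-κB subunit and IκB protein genes had a log2 fold change below 0 (median -0.16), and 0 were called with or without the block. The same 10 genes did not share a side without control 3, where 3 lay above 0 and the median was -0.02. Rela, the p65 subunit, was nearly level, at 124 to 136 CPM in the 6 libraries, whereas Nfkb1, the p105 precursor of p50, was at 232 CPM in control 3 and 144 to 189 CPM elsewhere (both chosen after their values were seen). The genes with the smallest p-values were Nfkbid, Nfkbiz and Relb, with log2 fold changes of -0.37 ± 0.20, -0.22 ± 0.13 and -0.22 ± 0.16 (SE). Nfkbid, an atypical nuclear IκB protein, was at 6.50, 5.46 and 5.39 CPM in the controls and at 5.08, 3.73 and 4.60 CPM in PRP. Its groups did not overlap, which held for 1 of these 10 genes and for 9.21% of all genes tested.

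Of 15 kinase and adaptor genes that carry the signal from receptors to IκB, 5 had a log2 fold change above 0 and 10 below, the median was -0.01, and 0 were called with or without the block. Ripk1, a kinase downstream of the TNF receptor, had a log2 fold change of -0.18 ± 0.12, Irak4, the kinase at the start of interleukin 1 signalling, 0.43 ± 0.29, and Myd88, the adaptor before it, -0.16 ± 0.15 (SE). Irak4 was at 1.25 to 1.62 CPM in control and 1.96 to 2.00 CPM in PRP, without overlap. That held for 1 of the 15 genes and for 9.21% of all genes tested. Ripk1 shares part of its span with Serpinb6a.

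Among 15 ligand and receptor genes of the pathway, 5 lay above 0 and 10 below, with a median of -0.13, and 0 were called in either fit. When control 3 was left out, 7 of the 15 lay above 0 and the median was -0.02. Il1r1, the signalling receptor for interleukin 1, was at 110, 139 and 151 CPM in the controls and at 106, 110 and 114 CPM in PRP. It was lower in PRP in each pair, as were 2 of the 15 genes and 16.3% of all genes tested. The log2 fold change of Il1r1 was -0.28 ± 0.11 (edgeR adjusted p = 0.9998, and 0.137 with the block). Tlr3, a receptor for double-stranded RNA, and Tlr4, the receptor for lipopolysaccharide, differed by -0.46 ± 0.24 and -0.46 ± 0.33 on the log2 scale (SE). Among the inflammatory cytokines that start the response, Il1a was highest in control 3, at 41 counts against 15 to 32 counts in the other libraries, whereas Il1b and Tnf were not. Il1b was at 2.02 CPM there and 1.21 to 3.74 CPM in the other libraries, and Tnf at 2.38 CPM and 1.91 to 3.40 CPM. Cd14, a co-receptor for lipopolysaccharide, was at 22.9 CPM in control 3 and 7.44 to 12.2 CPM elsewhere (these 4 genes were also chosen after their values were seen).

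Receptors for the products of the target genes were represented by 13 tested genes, 4 above 0 and 9 below, with a median of -0.18 and 0 called in either fit. Il6st, which encodes gp130, was the best expressed of those with the smallest p-values, at 319, 315 and 386 CPM in the controls and 300, 281 and 308 CPM in PRP. Its groups did not overlap, which held for 1 of the 13 genes and for 9.21% of all genes tested. The log2 fold change of Il6st was -0.20 ± 0.08 (edgeR adjusted p = 0.9998, and 0.153 with the block). Ccr1, a chemokine receptor of myeloid cells, and Ptger3, a prostaglandin E2 receptor, differed by -0.33 ± 0.29 and -0.18 ± 0.22 on the log2 scale (SE). The receptors of the 2 chemokine pairs were near the limit of detection, with 1 to 29 counts of Cxcr2 and 0 to 15 counts of Ccr2 per library (named after their values were seen).

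Of 24 further NF-κB targets tested, 4 lay above 0 and 20 below, with a median of -0.15, and 0 were called in either fit. This lean also shrank without control 3, to 9 of the 24 above 0 and a median of -0.02. Control 3 was the highest library for 15 of the 24. Saa3, which encodes an acute phase protein, was at 24.6 CPM in control 3 and 0.718 to 1.11 CPM in the other 5 libraries, and Lcn2, which encodes the siderophore-binding protein lipocalin 2, at 4.03 CPM against 0.580 to 1.10 CPM. Their log2 fold changes were -3.30 ± 1.51 and -1.24 ± 0.61 with control 3, and -0.19 and -0.18 without it. Ier3, an immediate early gene of survival signalling, was at 80.0, 78.4 and 86.0 CPM in the controls and at 102, 84.6 and 96.4 CPM in PRP. It was higher in PRP in each pair, as were 1 of the 24 genes and 16.8% of all genes tested. The log2 fold change of Ier3 was 0.21 ± 0.08 (edgeR adjusted p = 0.9998, and 0.176 with the block). Saa3 shares its span with a predicted gene.

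**Figure D4:**
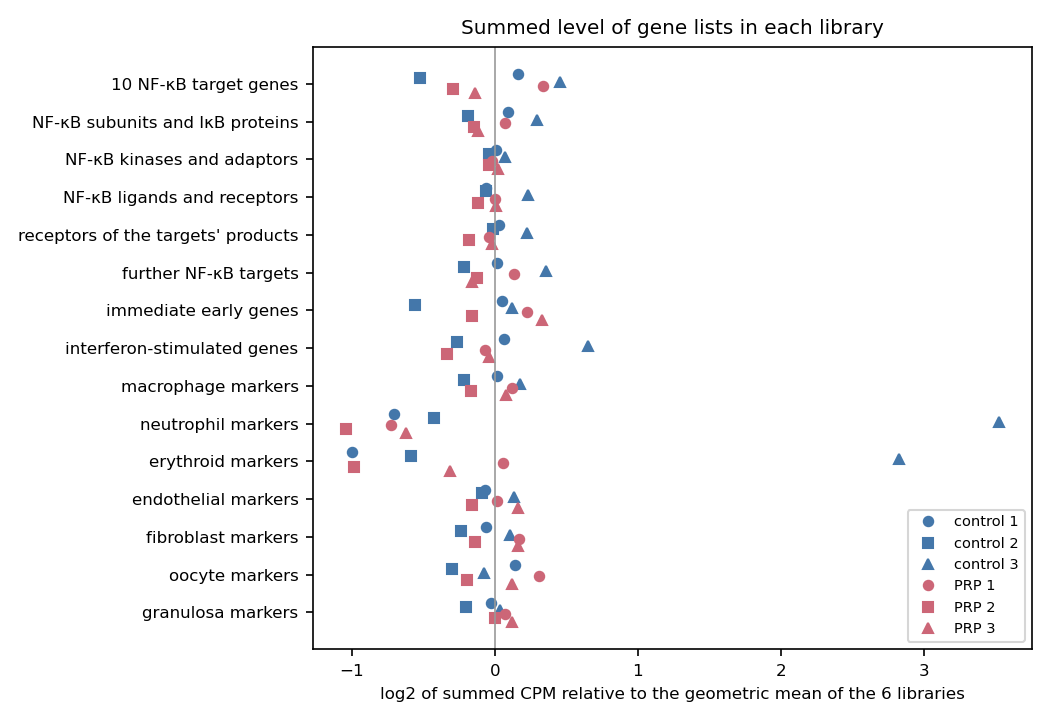
Summed CPM of each gene list in each of the 6 libraries, as log2 relative to the geometric mean of the 6, with control in blue, PRP in red and 1 marker shape per replicate number. Neutrophil and erythroid markers of control 3 lie far to the right (39.3 and 1532 CPM), and control 3 is also the rightmost library for the NF-κB target genes and for the other 5 lists of the pathway. It is rightmost for interferon-stimulated genes (421 CPM) and macrophage markers (96.1 CPM) as well. Its level is 1.06 times the mean of the other 5 libraries for kinases and adaptors and 1.15 times for macrophage markers.

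Immediate early genes, which respond to growth factors through other pathways, shared the low replicate 2 (12 of 14), and control 3 was the highest library for 4 of the 14. Whether they differ from the NF-κB targets in this was not tested. Their 3 pair medians were 0.15, 0.22 and 0.20, all above 0. In the blocked edgeR fit 11 of the 14 genes lay above 0 and 3 below. Egr3, named after its values were seen, was among the latter at -0.31 ± 0.11 (edgeR adjusted p = 0.292). With the block edgeR called 4 of the 14 higher (0.0801% of all genes were called higher), among them Egr1 at 0.26 ± 0.04 (edgeR adjusted p = 0.0279). The same block in limma-voom called 0 of the 14, with an adjusted p of 0.0513 for Egr1, and without the block 0 were called by edgeR. Fos, with a log2 fold change of 0.14 ± 0.09 in the blocked fit, did not pass. Without replicate 3 in both groups, Egr1 did not pass in the blocked edgeR fit either (adjusted p = 0.112). Of the 4 genes called with all pairs, only Nr4a1, named after its values were seen, still passed (edgeR adjusted p = 0.0309).

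The genes whose centred log2 CPM profile over the 6 libraries lay closest to the mean profile of the 10 targets were Mndal, Il1rl1, Fas, Fhdc1 and Vcan, with root mean square differences of 0.08 to 0.09 on the log2 scale. The median difference over the other genes of at least 1 CPM was 0.42, and the 5 were picked as the smallest among 14825 such genes. Fas, the death receptor, was at 17.5, 12.8 and 27.3 CPM in the controls and at 19.6, 14.8 and 17.2 CPM in PRP. Il1rl1, the receptor of interleukin 33, was at 6.30, 3.90 and 8.37 CPM and at 7.06, 4.03 and 5.68 CPM, and Vcan, an extracellular matrix proteoglycan, at 140, 104 and 198 CPM and at 160, 107 and 148 CPM. All 5 were highest in control 3 and had replicate 2 as the lowest library of each group. The mean profile of the 10 targets has that same shape, so this follows from how the 5 were chosen and is no separate observation. Within the set, Cxcl1 and Icam1 lay closest to the mean profile (0.14 and 0.16) and Ccl7 farthest from it (0.46).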

How the data were processed

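Raw counts for 6 mouse ovary libraries, summed by gene symbol, are in 1 table that the authors deposited. GRCm38/mm10 is the build named in the submitters' processing notes. Aligner, counter, strand setting and annotation: not given in the sources used here. Columns carry the sample titles, except that of PRP 3, whose letters are transposed and which was the one title left unmatched.

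The edgeR 4.0.16 test (R 4.3.3) used filterByExpr, TMM factors and a robust quasi-likelihood fit without a block, two-sided, with Benjamini-Hochberg adjustment at 0.05 over 17475 genes, and was checked on simulated data. CPM were computed on the TMM-scaled totals of the genes tested, and log2 CPM with a prior count of 2. Each standard error was derived from the fitted fold change and its test statistic; intervals are 95%. Coordinates and promoters are RefSeq (GRCm38.p6), and exon lengths GENCODE M21. Alternatives were DESeq2 1.42.0, limma-voom (limma 3.58.1), other scaling factors and filters, the replicate block, and leaving out libraries.

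No label pairs the libraries, but those with the same number deviated together from their group means (correlations of 0.24, 0.40 and 0.33 over genes). The numbers were therefore taken as pairs for the pair differences and the blocked fits, whereas the main test did not use them. This pairing was read from the same counts. Between libraries chi-square per degree of freedom was at least 8.41, so none was a duplicate. Members and lists were chosen with earlier results of these data known. Genes named were the 10 targets, those with the 3 smallest p-values of each pathway list, the 5 closest profiles and set markers; others are marked where they appear.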

Additional observations from a re-analysis of the deposited data

How the results depend on the processing

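Under the 19 alternatives the count of NF-κB targets called stayed at 0, including each library left out, while the smallest adjusted p among them was 0.0726. The median log2 fold change of the 10 genes kept its sign under all other factors, filters and tools and ran from -0.402 to 0.159 when single libraries were left out. With the replicate block it turned to 0.148 without replicate 3. The replicate block changed no call among the 10 genes or the 5 pathway lists; over all genes it called 21 in edgeR and 0 in limma-voom, and in edgeR 3, 1 and 19 without replicates 1, 2 and 3. In the last of these fits 1 pathway gene passed, Cebpd, a transcription factor of the acute phase response, named after its values were seen, at 0.45 ± 0.08 (edgeR adjusted p = 0.0397). With all 3 pairs in the block Cebpd was at 0.20 ± 0.20 (edgeR adjusted p = 0.80), and pair 3 alone gave -0.28.

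Directions of single genes also depended on the libraries. With the replicate block and without replicate 3, Cxcl1 (0.12), Ccl2 (0.0822), Il6 (0.29), Icam1 (0.11) and Relb (0.0492) turned upward. Without replicate 2 Ccl7 (-0.13) and Tnfaip3 (-0.0404) turned downward in the blocked fit, as did Lif (-0.20) and Tnfaip3 (-0.20) without replicate 1. Leaving out single libraries gave -0.68 to 0.0761 for Cxcl1, -0.71 to 0.0479 for Ccl2, -0.13 to 0.76 for Ccl7, -0.56 to 0.40 for Il6, -0.19 to 0.48 for Lif, -0.56 to 0.0538 for Ptgs2, -0.24 to 0.24 for Tnfaip3, -0.0366 to 0.26 for Nfkbia, -0.41 to 0.0373 for Icam1 and -0.26 to 0.0105 for Myd88. The κB consensus was matched for 6 genes and its stricter form for 4. Beyond the libraries named, the cause of these shifts was not tested. With 3 libraries per group, fold changes anywhere within the intervals given remain compatible with these data. The lack of calls therefore does not show that a gene did not change.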
